A study of Mus musculus with 12 samples.

Results

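Mitochondrial RNA fragments are the reads that the deposited small RNA lists assign to a GenBank record marked as mitochondrial RNA, on either strand of that record. Over 10 small RNA libraries they come to 33806 distinct sequences of 2439644 in all, and to 487346 reads, which are 0.383% of the classified reads. Their records number 1822, and their lengths run from 18 to 47 nt. The libraries form 5 pairs of wild-type (WT) mice and mice labelled as knockout (KO, Gpx5-/-) for Gpx5, a glutathione peroxidase secreted by the epididymis. All mice were C57BL/6. At 13 months, 7 WT and 7 Gpx5-/- animals gave testis and the caput, corpus and cauda of the epididymis, and a further pair of caput libraries came from mice of 2 months. Caput and cauda were punctured in buffer so that sperm could leave before RNA was taken, while testis and corpus were taken directly. How the Gpx5 allele was made is not given in the sources used here.

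Tissue was pooled and each group has 1 library. Values therefore carry no error between replicates, and genotypes were compared without a test. The libraries held 3855476 to 29049669 classified reads, and levels below are reads per 1000000 classified reads (RPM). Intervals are at 95%, exact binomial (Clopper-Pearson) for shares and exact conditional binomial for KO over WT ratios. They cover counting error only, since reads without molecular identifiers are not independent molecules. For a sequence at 0, that count allows up to 3 reads, which is 0.103 RPM in the deepest library and 0.778 RPM in the shallowest. In the caput transcriptome of 13 months, the only tissue so measured, Gpx5 had 8474 RPKM with WT mice and 917.9 RPKM with KO mice.

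The mitochondrial genome is transcribed into long RNAs that span many genes. Its tRNAs lie between the rRNA and protein genes and are cut out at both ends, which frees the neighbouring rRNAs and mRNAs. The large-subunit rRNA, mt-Rnr2, lies between the genes for the valine tRNA (TrnV) and a leucine tRNA (TrnL1), and the small-subunit rRNA, mt-Rnr1, lies before TrnV. The control region holds the origin of the heavy strand and both main promoters and encodes no protein. A CCA end is added to a tRNA after it has been cut out, and is not in its gene.

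The class turns on a short stretch at the first base of mt-Rnr2. The sequence at both borders of mt-Rnr2, put together from the reads themselves, is shown first, with the first 20 bases of mt-Rnr2 in capitals on the first line and the first 6 bases of TrnL1 in capitals on the second.
TrnV end and mt-Rnr2 start: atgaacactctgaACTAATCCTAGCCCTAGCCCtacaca
mt-Rnr2 end and TrnL1 start: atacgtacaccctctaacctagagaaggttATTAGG
The most abundant reads begin exactly at that first base and differ in where they stop. They are given with the same 20 bases in capitals.
mt-Rnr2 start, 20 nt: ACTAATCCTAGCCCTAGCCC
mt-Rnr2 start, 21 nt: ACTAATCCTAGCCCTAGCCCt
mt-Rnr2 start, 24 nt: ACTAATCCTAGCCCTAGCCCtaca
Reads from further inside mt-Rnr2 were led by 4 families. Their most abundant members are shown with positions counted from 1 at the first base of the gene.
mt-Rnr2, 238 to 271: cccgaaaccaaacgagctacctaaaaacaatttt
mt-Rnr2, 753 to 777: tataacttctctgttaacccaacac
mt-Rnr2, 1070 to 1104: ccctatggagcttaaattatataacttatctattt
mt-Rnr2, 1562 to 1583: ccctctaacctagagaaggtta
The other mitochondrial kinds of read are shown by their most abundant sequences. For the 3 tRNAs, capitals mark the bases beyond the last base of the gene.
mt-Rnr1: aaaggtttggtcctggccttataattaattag
control region, first form: gaattgatcaggacataggga
control region, second form: gaattgatcaggacatagggtttga
TrnG, glycine tRNA: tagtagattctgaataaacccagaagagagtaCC
TrnF, phenylalanine tRNA: ataattgtatcccataaacaCCA
TrnT, threonine tRNA: aagatcttctcttctcaagacaCCA
The last lines are reads of the class that belong to no mitochondrial stretch, followed by a first-base variant of the 20 nt start, whose changed base is in capitals.
Rmrp: agctcgctctgaaggcctgtttcctaggct
listed under Mrps26: tgtccctgttcgggcgcca
listed under a cDNA clone: gatccttcgatgtcggct
first-base variant: Cctaatcctagccctagccc

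The label held for most, but not all, of the class. Reads were joined by their overlaps into mitochondrial stretches, and the stretch for mt-Rnr2 came to 1582 nt, which is the length of mt-Rnr2 in RefSeq. It is flanked by 13 bases of TrnV and 6 bases of TrnL1, and its 2 pieces were joined over 12 nt. For mt-Rnr1, parts of 388 and 495 nt of 955 nt were recovered, and for the control region 140 nt. With up to 2 mismatches, 428439 of the 487346 class reads (87.9%) fell on a mitochondrial stretch. Nuclear copies of mitochondrial sequence cannot be told apart from the mitochondrial genome here.

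mt-Rnr2 alone held 399009 reads, or 81.9% of the class. The control region held 17660 reads (3.62%), mt-Rnr1 held 7296 (1.50%) and mitochondrial tRNAs held 4274 (0.877%). The rest of the class lay on none of these stretches. Rmrp, the nuclear gene for the RNA part of RNase MRP, held 11850 reads (2.43%), and other RefSeq transcripts, such as nuclear mRNAs of mitochondrial ribosomal proteins, held 15674 (3.22%). Other GenBank records without a symbol held 10479 reads (2.15%), among which reads of mitochondrial genes that could not be placed may be found. Their most abundant sequence, with 417 reads, holds the end of mt-Rnr2 and the first 6 bases of TrnL1. It runs 1 base past the stretch and was therefore counted here. A further 20904 reads (4.29%) sat on cDNA clone records, and 63.8% of these shared at least 16 bases with a read of the rRNA class. Of 1509 reads listed under Lars2, the mitochondrial leucyl-tRNA synthetase, 1502 shared 16 bases with rRNA-class reads in the same way.

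The share of the class on the mitochondrial stretches varied from library to library. In 13-month caput it was 77.2% for WT and 66.6% for KO, in corpus 96.9% and 76.7%, and in cauda 75.3% and 83.3%. In testis it was 52.8% for WT and 48.2% for KO, the lowest of the 10 libraries. The 2-month caput libraries had 82.6% and 84.3%. As listed, about as many reads of the testis class therefore lay off the mitochondrial stretches as on them. These shares leave out reads of the mt-Rnr2 start that were listed as rRNA, and so depend on the listing. Such reads numbered 1664 for WT and 13455 for KO in 13-month caput, and 14206 and 56224 in corpus. In cauda they numbered 70514 for WT and 46413 for KO, and in testis 5942 and 10722.

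**Figure D1:**
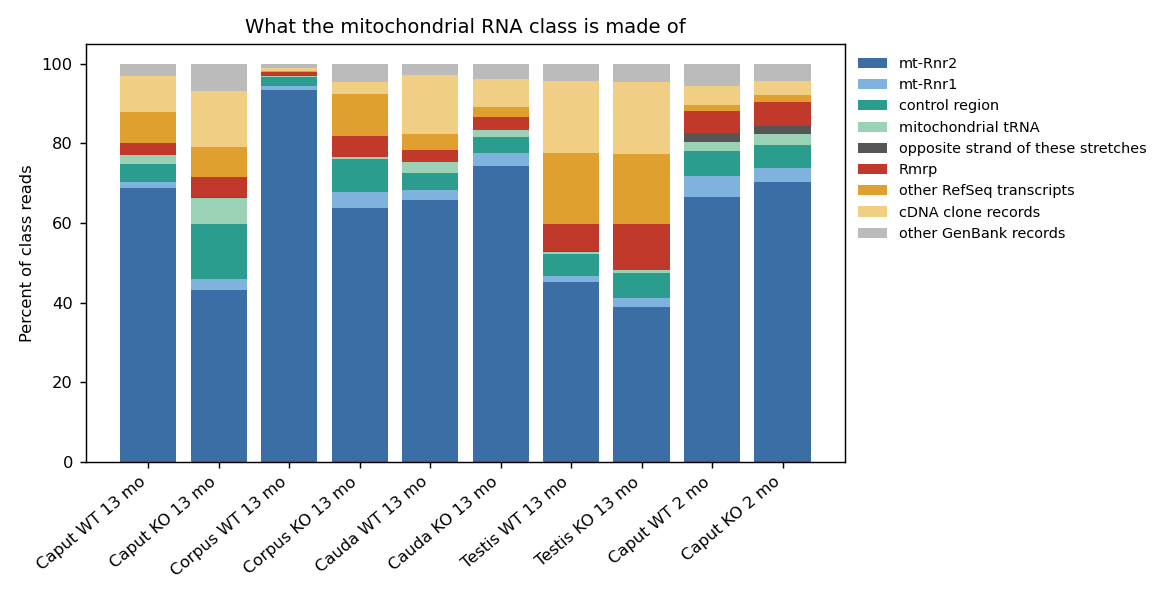
Stacked bars give, for each of the 10 libraries, the percent of class reads (vertical axis) by kind of sequence. mt-Rnr2 is the widest segment of every bar. In testis nuclear transcripts and cDNA clone records are at their widest, and there the mitochondrial kinds together come to 52.8% for WT and 48.2% for KO.

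The reads came almost wholly from 1 strand of each stretch. The deposited lists put 61773 class reads (12.7%) on the minus strand of their record, and 50845 of these (82.3%) matched a stretch in its own sense once oriented as the read, so their records are deposited in the other orientation. All control region reads were of this kind. Only 200 of the 428439 reads on the stretches (0.0467%) lay on the opposite strand.

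As listed, the class was most abundant in WT corpus. It stood at 2567 RPM for WT and 817.7 RPM for KO in 13-month caput, at 10828 and 2980 RPM in corpus, and at 1995 and 2473 RPM in cauda. Testis had 1754 RPM for WT and 1952 RPM for KO, and the 2-month caput had 179.0 and 177.9 RPM. KO over WT was thus 0.318 (0.312 to 0.325) in 13-month caput and 0.275 (0.272 to 0.279) in corpus. It was 1.24 (1.22 to 1.26) in cauda, 1.11 (1.09 to 1.14) in testis and 0.994 (0.906 to 1.09) in 2-month caput. At 2 months 249 of 690 class reads for WT and 299 of 1365 for KO came from rows that a spreadsheet had turned into dates, and without such rows the log2 ratio moved from -0.01 to 0.28 (0.12 to 0.44). The 13-month ratios depend on the class under which the start of mt-Rnr2 was listed, which was not the same in every library.

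The 20 nt start of mt-Rnr2 matched its record without a mismatch in every library, yet it was listed as mitochondrial RNA in 5 libraries and as rRNA in the other 5. It was listed as mitochondrial RNA in WT corpus at 8721 RPM and as rRNA in KO corpus at 6503 RPM. In caput at 13 months it was mitochondrial RNA in WT at 748.6 RPM and rRNA in KO at 486.9 RPM. Cauda listed it as rRNA in both genotypes, at 4097 RPM for WT and 3942 RPM for KO. In testis it was rRNA in WT at 237.8 RPM and mitochondrial RNA in KO at 239.8 RPM, and the 2-month caput libraries listed it as mitochondrial RNA at 23.3 and 62.4 RPM. The level of this sequence therefore differed far less between genotypes in corpus and testis than its listing did.

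The neighbouring lengths switched too, and not together. The 21 nt start was mitochondrial RNA in caput, corpus and cauda at 13 months but rRNA in both testis libraries, at 445.7 RPM for WT and 596.9 RPM for KO. The 24 nt start was mitochondrial RNA in KO corpus (181.2 RPM) and rRNA in WT corpus (172.4 RPM). Of all reads that start at the first base of mt-Rnr2, 94.9% were listed as mitochondrial RNA in WT corpus and 8.39% in KO corpus. The same share was 92.4% for WT and 16.4% for KO in 13-month caput, 6.61% and 11.8% in cauda, and 47.9% and 30.3% in testis. Over the whole class, 1423 of the 33806 sequences (4.21%) were listed under another class in some library. Those listings held 246987 reads, of which 226484 were rRNA.

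Within a pair, 189 of 2077 class sequences found in both corpus libraries were mitochondrial RNA in 1 genotype only. The 88 of them listed so in WT alone summed to 8886 RPM in WT and to 6738 RPM, under other classes, in KO. The rRNA class moved in the opposite direction to the mitochondrial class in corpus, from 3277 RPM in WT to 11173 RPM in KO. In caput at 13 months both classes were lower in KO, with the rRNA class at 7073 RPM for WT and 3237 RPM for KO.

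Counting each of the 33806 sequences under whatever class it was listed gave another picture. WT and KO were at 2836 and 1625 RPM in 13-month caput, at 11676 and 9927 RPM in corpus and at 6397 and 6934 RPM in cauda. They were at 2783 and 3316 RPM in testis and at 185.7 and 189.3 RPM in 2-month caput. KO over WT became 0.573 (0.565 to 0.582) in caput and 0.850 (0.844 to 0.857) in corpus. It became 1.08 (1.07 to 1.09) in cauda, 1.19 (1.17 to 1.21) in testis and 1.02 (0.932 to 1.12) in 2-month caput. Caput at 13 months had the lowest ratio after this pooling, where corpus had been lowest as listed.

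**Figure D2:**
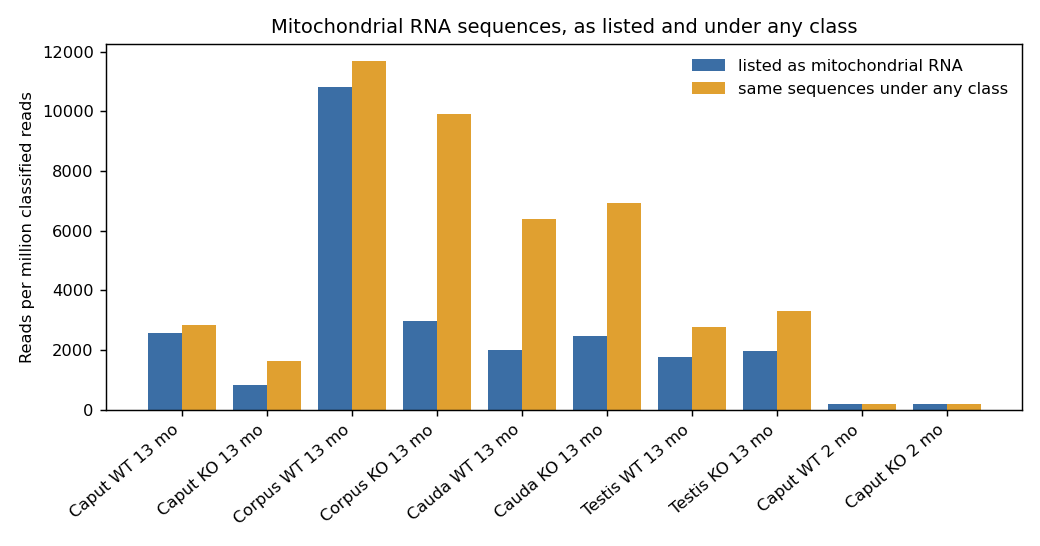
For each library, blue bars give the reads listed as mitochondrial RNA and yellow bars the same 33806 sequences under any class, in RPM from 0. In corpus the blue bars stand at 10828 and 2980 RPM and the yellow bars at 11676 and 9927 RPM, and in cauda most of the yellow bars lies outside the mitochondrial listing.

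Values of mt-Rnr2, mt-Rnr1, the control region, the tRNAs and single mitochondrial sequences from here on count reads under any class, while those of Rmrp and of the nuclear transcripts are as listed. Exact matches to mt-Rnr2 on its own strand numbered 590920, and 535243 of them (90.6%) started at the first base. These start reads were at 1574 RPM for WT and 876.3 RPM for KO in 13-month caput, at 9634 and 7344 RPM in corpus, and at 4595 and 4596 RPM in cauda. Testis had 1331 RPM for WT and 1565 RPM for KO, and the 2-month caput had 74.4 and 123.9 RPM. KO over WT was 0.557 (0.546 to 0.568) in 13-month caput, 0.762 (0.756 to 0.769) in corpus and 1.00 (0.989 to 1.01) in cauda. It was 1.18 (1.15 to 1.21) in testis and 1.66 (1.46 to 1.91) in 2-month caput, the last from 287 reads in WT. By listing alone the corpus ratio of the same reads would be 0.0673 for those called mitochondrial RNA and 13.8 for those called rRNA.

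The length at which start reads stop differed between tissues at 13 months. In corpus 90.5% of them were 20 nt for WT and 88.5% for KO, and in cauda 89.2% and 85.8%. In caput at 13 months the share was 47.6% for WT and 55.6% for KO, with second peaks at 21 and 24 nt. Testis had the lowest share, 17.9% for WT and 15.3% for KO. There the 21 nt read led, with 33.5% for WT and 38.1% for KO, and the 24 nt read followed with 19.5% and 17.5%. The ratio of 20 nt to 21 nt reads was 31.8 for WT and 23.1 for KO in corpus, against 0.534 for WT and 0.402 for KO in testis. The 20 nt shares of corpus and cauda thus interleaved, with those of caput and testis below them in both genotypes. At 2 months the genotypes lay further apart, with a 20 nt share of 31.4% (26.0% to 37.1%) for WT and 50.4% (47.1% to 53.6%) for KO. There a read of 46 nt held 33.4% (96 reads) and 21.7% (206 reads) of the start reads.

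**Figure D3:**
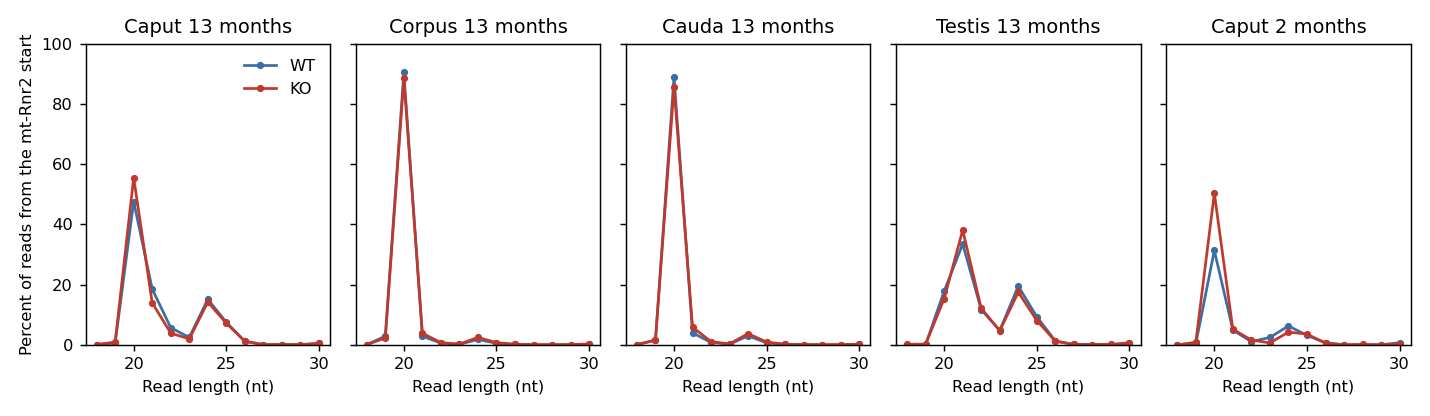
For each pair, lines give the percent of all reads from the mt-Rnr2 start (vertical axis) at each read length from 18 to 30 nt, WT in blue and KO in red. A single peak at 20 nt holds 85.8% to 90.5% in corpus and cauda, while testis peaks at 21 and 24 nt and caput at 13 months has all 3.

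The 2 length groups of the start did not keep the same ratio between genotypes. In caput at 13 months KO over WT was 0.650 (0.632 to 0.669) for 20 nt reads and 0.466 (0.452 to 0.481) for 21 to 26 nt reads. In corpus it was 0.746 (0.739 to 0.753) for 20 nt reads and 1.05 (1.01 to 1.08) for the longer ones, and in cauda 0.962 (0.951 to 0.974) and 1.38 (1.33 to 1.43). In testis the values were 1.01 (0.9499 to 1.07) and 1.20 (1.17 to 1.23). The longer start reads had the higher ratio in corpus, cauda and testis and the lower one in caput.

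A small set of start reads carried another first base. The form shown above (A1C, counted from 1 at the 5′ end) reached 110.1 RPM in WT cauda, 91.2 RPM in KO corpus and 23.6 RPM in KO cauda. In the other 5 libraries of 13 months it lay between 0.16 and 1.28 RPM, and in the 2-month libraries it was at 0. All first-base changes together were 2.62% (2.50% to 2.74%) of the 20 nt start and its changed forms in WT cauda, 1.41% (1.32% to 1.52%) in KO corpus and 0.621% (0.551% to 0.697%) in KO cauda. In WT corpus, from 253329 reads of the unchanged form, the share was 0.0174% (0.0126% to 0.0233%). At the median of the inner positions it was 0.0331% in both corpus libraries, so the first base stood above that median in KO corpus and not in WT corpus. Single inner positions reached 1.29% in WT caput, 0.794% in WT corpus and 0.0974% in KO corpus. At 2 months 1 inner position reached 32.3% in WT, beside 90 reads of the unchanged form, and 5.15% in KO, beside 479. These libraries do not separate by tissue or by genotype.

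The rest of mt-Rnr2 was covered thinly and unevenly. Read starts were found at 1155 of its 1582 positions, and reads covered 87.2% of the gene in WT testis, the least of the 8 libraries of 13 months, and all of it in WT corpus. Reads that start elsewhere than the first base were at 202.7 RPM for WT and 142.8 RPM for KO in caput, 559.8 and 981.7 RPM in corpus, 647.9 and 1035 RPM in cauda, and 117.9 and 203.8 RPM in testis. KO over WT was 0.705 (0.668 to 0.743) in caput, 1.75 (1.71 to 1.80) in corpus, 1.60 (1.56 to 1.64) in cauda and 1.73 (1.60 to 1.87) in testis. At 2 months it was 0.946 (0.733 to 1.23), from 94 reads for WT and 177 for KO. These values include reads that start at the base just before the gene and run into its start. Such reads were at 89.8 RPM for WT and 171.1 RPM for KO in corpus, and at 33.7 and 19.1 RPM in testis. In corpus reads that start at the first base were lower in KO, while those that start elsewhere were higher.

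The family that starts at positions 748 to 754 was the most abundant one inside the gene. Its reads start at neighbouring bases and mostly stop together: of 13128 reads, 71.7% ended at position 777. They were at 95.9 RPM for WT and 278.9 RPM for KO in corpus, a ratio of 2.91 (2.75 to 3.08), and at 245.5 and 261.6 RPM in cauda, a ratio of 1.07 (1.02 to 1.12). In testis the family was at 12.4 RPM for WT and 24.7 RPM for KO, and in 13-month caput at 15.0 and 19.01 RPM. The 25 nt member shown above was at 6.33 RPM for WT and 75.7 RPM for KO in corpus, and at 71.6 and 73.7 RPM in cauda. KO corpus and both cauda libraries were high for this read, and the other 7 libraries lay at 6.33 RPM or below.

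The other 3 families behaved differently and were at their highest level in KO cauda. Of the 4310 reads that start at position 1070, 68.0% ended at position 1104. They were at 22.6 RPM for WT and 99.0 RPM for KO in cauda, a ratio of 4.37 (3.89 to 4.93), and at 68.3 and 51.5 RPM in corpus, a ratio of 0.753 (0.677 to 0.836). In testis the ratio was 3.48 (1.57 to 8.75), from 8 reads for WT and 32 for KO. In 13-month caput it was 1.14 (0.914 to 1.42). The reads that start at position 238 were at 13.6 RPM for WT and 72.2 RPM for KO in cauda, a ratio of 5.30 (4.57 to 6.17), and at 21.7 and 13.6 RPM in corpus. KO cauda was the highest of the 10 libraries for each of the 2 families.

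The last family lies at the end of the gene. The 3050 reads that start at position 1562 were at 9.55 RPM for WT and 77.5 RPM for KO in cauda, a ratio of 8.12 (6.84 to 9.68). In corpus they were at 40.0 RPM for WT and 28.5 RPM for KO, and in testis at 7.70 and 13.3 RPM. Of these reads, 29.1% ended at position 1582, the last base of mt-Rnr2, and 65.3% held 1 more base. That base is the same as the first base of TrnL1, so a base added to the end and a base of the neighbouring tRNA cannot be told apart. The 4 positions were chosen for their abundance after the values were seen.

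The borders of mt-Rnr2 could be read only within the 13 bases of TrnV and 6 bases of TrnL1 that its stretch holds. Reads that run further into either tRNA could not match and were not counted, so how sharp the borders are was not tested. At the base just before the first one, 7691 reads started, and 71 counted reads spanned the border with TrnV by 5 or more bases on each side. At the other border 1239 reads ended at the last base of mt-Rnr2 and 2660 reached into TrnL1. Exact reads from the opposite strand of mt-Rnr2 numbered 74.

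**Figure D4:**
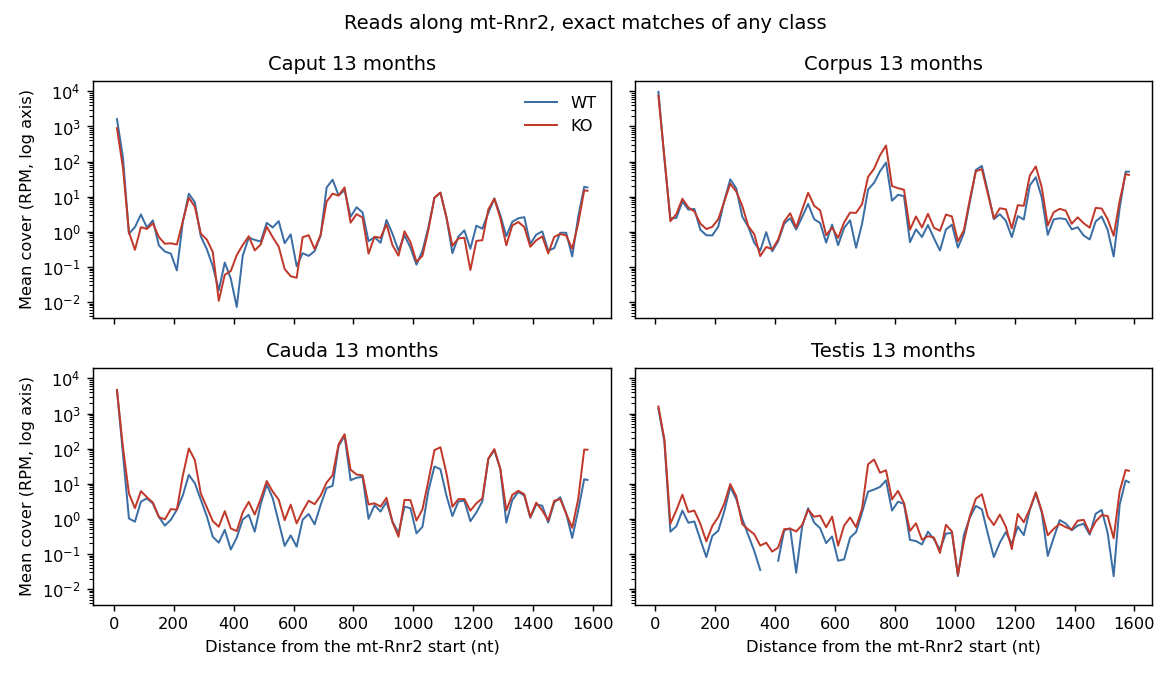
Lines give the mean cover of mt-Rnr2 by exact reads of any class in bins of 20 nt (vertical log axis, in RPM) against the distance from the start of the gene, WT in blue and KO in red, for the 4 pairs of 13 months. The start stands far above all other positions in every library, and the red line runs above the blue one just past 238 and 1070 nt in cauda and just past 748 nt in corpus.

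mt-Rnr1 gave far fewer reads and no dominant one. Exact reads were at 35.1 RPM for WT and 20.3 RPM for KO in 13-month caput, 79.1 and 101.0 RPM in corpus, 46.4 and 69.7 RPM in cauda, and 22.5 and 36.3 RPM in testis. KO over WT was 0.579 (0.505 to 0.664) in caput, 1.28 (1.18 to 1.38) in corpus, 1.50 (1.36 to 1.66) in cauda and 1.61 (1.35 to 1.93) in testis. Its most abundant read, at the 5′ end, peaked at 10.8 RPM in KO corpus. The directions match those of mt-Rnr2 reads that start elsewhere than the first base: lower in KO caput and higher in the other 3 tissues of 13 months.

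The control region reads lie on the strand opposite to that of the rRNAs. The shorter form shown above was at 17.7 RPM for WT and 27.4 RPM for KO in 13-month caput, 62.2 and 56.2 RPM in corpus, 17.0 and 21.6 RPM in cauda, and 8.40 and 12.1 RPM in testis. The longer form was at 20.4 and 15.0 RPM in caput, 26.4 and 30.3 RPM in corpus, 9.92 and 11.9 RPM in cauda, and 24.2 and 29.2 RPM in testis. Both forms matched GenBank records without a mismatch. The shorter form led in corpus and the longer one in testis, in both genotypes. Reads that match the 140 nt stretch exactly, which leaves the shorter form out, had KO over WT ratios of 0.7002 (0.636 to 0.771) in 13-month caput, 0.990 (0.913 to 1.07) in corpus, 1.12 (0.994 to 1.27) in cauda and 1.24 (1.11 to 1.38) in testis.

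Stretches could be made for 13 of the 22 mitochondrial tRNA genes, with a CCA end for 9 of them. Class reads of tRNAs beyond these could not be placed. The tRNA reads that were placed in the class were only 3′ ends. All 4274 of them ran past the last base of the gene, 81 by 1 base, 3242 by 2 and 951 by 3. TrnG gave 3194, TrnF 554 and TrnT 526 of these reads. The added bases of the 3 reads shown are part or all of a CCA end, and these reads carry 1 or 2 mismatches to their records. The TrnG read shown above was at 10.8 RPM for WT and 13.0 RPM for KO in 13-month caput, 12.7 and 8.21 RPM in cauda, 0.31 and 1.80 RPM in corpus, and 1.75 and 2.64 RPM in testis. It was higher in caput and cauda than in corpus and testis in both genotypes.

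Other tRNA fragments of mitochondrial origin were listed in the tRNA class. By position and length, 13 of the 22 mitochondrial tRNA genes could be named there. Reads of all 13 were counted where they matched exactly, with a CCA end added only for the 9 tRNAs whose joined reads reached the RefSeq length. The 3′ ends were thus not counted alike for all 13. These reads were at 233.6 RPM for WT and 282.3 RPM for KO in 13-month caput, 697.5 and 794.5 RPM in corpus, 529.3 and 523.1 RPM in cauda, and 148.8 and 259.0 RPM in testis. KO over WT was 1.21 (1.16 to 1.26) in caput, 1.14 (1.11 to 1.17) in corpus, 0.988 (0.956 to 1.02) in cauda and 1.74 (1.63 to 1.86) in testis. TrnY was part of these sums, at 219.4 RPM for WT and 334.3 RPM for KO in corpus and at 25.7 and 78.5 RPM in testis. Without it, an alternative added after the values were seen, KO over WT was 1.02 (0.972 to 1.08) in caput, 0.962 (0.928 to 0.998) in corpus, 0.914 (0.881 to 0.948) in cauda and 1.47 (1.36 to 1.58) in testis, so corpus turned its direction. Of the tRNAs with at least 10 RPM in a library of the pair, 3 of 6 were higher in KO caput, 4 of 11 in corpus, 3 of 8 in cauda and 8 of 8 in testis. In testis the intervals of TrnG (0.804 to 1.41) and TrnI (0.823 to 1.47) include 1. In caput the interval of TrnI, counted as higher, also includes 1 (0.841 to 1.23). No share of all sequences with a ratio above 1 is set beside these counts. The median log2 ratio of these tRNAs was -0.27 in corpus, -0.22 in cauda and 0.58 in testis, and lay within 0.01 of 0 in caput.

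TrnY, the tyrosine tRNA, gave the most tRNA reads. It was at 46.0 RPM for WT and 90.4 RPM for KO in 13-month caput, 219.4 and 334.3 RPM in corpus, 84.3 and 116.3 RPM in cauda, and 25.7 and 78.5 RPM in testis. All 4 pairs were higher in KO, by 1.97-fold (1.79 at the lower bound), 1.52-fold, 1.38-fold and 3.06-fold. Nearly all of it was a single read of 31 nt, at 322.5 RPM in KO corpus and 74.5 RPM in KO testis.

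Reads of the 13 mitochondrial mRNAs and of 9 tRNAs could not be placed without a mitochondrial genome and were not analysed here. Of both rRNAs, the 13 named tRNAs and the control region, those with at least 10 RPM in a library of a pair were compared. In testis all 11 such items had a ratio above 1, with a median log2 ratio of 0.56, but the intervals of TrnG (0.804 to 1.41) and TrnI (0.823 to 1.47) include 1, and 2 of the 11 were past 2-fold. In caput 3 of 9 were higher, with a median of -0.04, in corpus 5 of 14 (median -0.15) and in cauda 6 of 11 (median 0.10). Of those higher, the intervals of TrnI in caput (0.841 to 1.23) and the control region in cauda (0.994 to 1.27) include 1. Over all sequences of the libraries with at least 10 RPM, counted under any class, the median log2 ratio was -5.74 in caput, -0.11 in corpus, 0.28 in cauda and 0.07 in testis. In testis 9.24% of all sequences were past 2-fold higher and 14.4% past 2-fold lower. These are single sequences, while the items are sums of the reads of a gene or region, so the values are not of like kind. The share of all sequences with a ratio above 1 is not given here. Of the genes named by rule, TrnL1 had the lowest ratio in corpus, from 47.2 RPM in WT to 21.2 RPM in KO, and TrnT the next, from 11.7 to 6.22 RPM. In cauda TrnL1 had the highest, from 9.43 to 16.5 RPM, and TrnG the lowest, from 57.3 to 45.8 RPM. In testis TrnF followed TrnY, from 5.14 to 10.6 RPM. In 13-month caput TrnY and TrnQ, the glutamine tRNA, had the highest ratios, TrnQ moving from 33.1 to 48.2 RPM. TrnG was lowest in both cauda and testis, and TrnY was among the 2 highest in caput, corpus and testis but not in cauda.

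**Figure D5:**
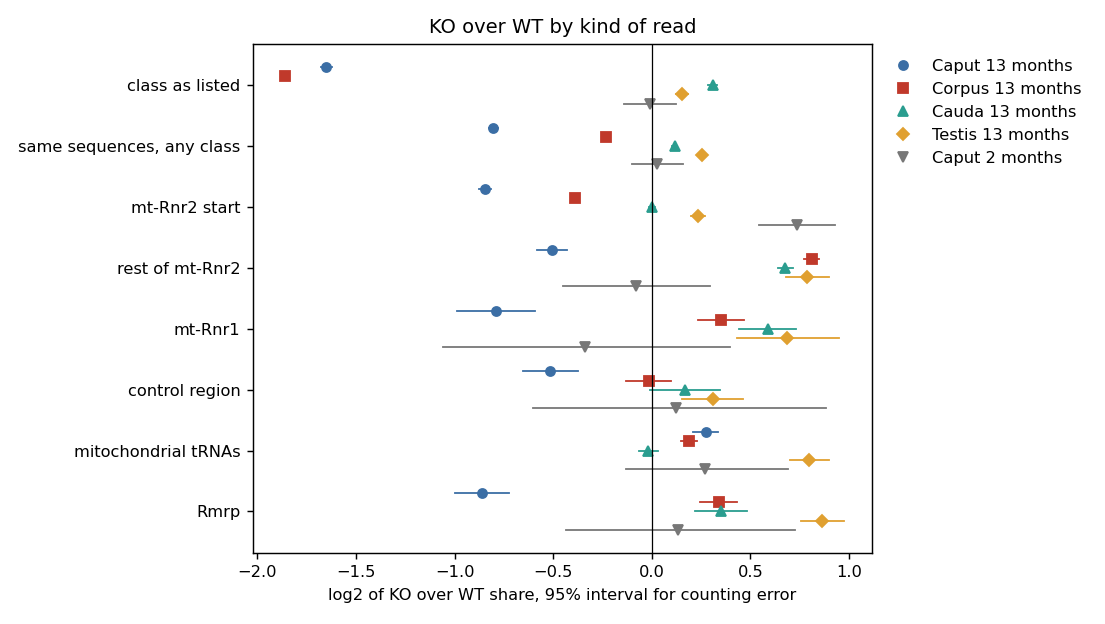
Points give the log2 of the KO over WT share for each kind of read in the 5 pairs, and lines the 95% interval for counting error. For the class as listed, 13-month caput and corpus lie at -1.65 and -1.86, whereas for the same sequences under any class they lie at -0.80 and -0.23. For mt-Rnr2 reads that start elsewhere than the first base (rest of mt-Rnr2), corpus lies to the right of 0.

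Rmrp RNA is needed for the processing of nuclear rRNA precursors and takes its name from work on mitochondria. Its reads were led by the 30 nt sequence shown above. The gene was at 74.6 RPM for WT and 41.1 RPM for KO in 13-month caput, 120.8 and 152.9 RPM in corpus, 61.6 and 78.6 RPM in cauda, and 122.4 and 223.2 RPM in testis. KO over WT was 0.551 (0.501 to 0.605) in caput, 1.27 (1.19 to 1.35) in corpus, 1.27 (1.16 to 1.40) in cauda and 1.82 (1.69 to 1.96) in testis. In the caput transcriptome, 1 library per genotype, Rmrp was at 3311 RPKM for WT and 4531 RPKM for KO, a difference of 0.45 on the log2(RPKM + 1) scale. The fragments and the transcriptome value moved in opposite directions in caput.

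The read listed under Mrps26, a mitochondrial ribosomal protein, also changed its listing. It ends in cca, matched the Mrps26 record only with 2 mismatches, and was listed as microRNA with 1 mismatch in other libraries. It was at 253.0 RPM in WT corpus under microRNA and at 270.8 RPM in KO corpus under mitochondrial RNA. As listed, Mrps26 therefore stood at 0.24 RPM for WT and 271.2 RPM for KO in corpus. Its last 13 bases also occur in 30397 reads of the mRNA class, 15280 of the tRNA class and 14386 of the microRNA class.

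The other nuclear transcripts had a profile of their own, strongest in testis. Without Mrps26 and Lars2 they were at 305.4 RPM for WT and 335.9 RPM for KO in testis, and at 112.5 RPM for WT and 26.2 RPM for KO in 13-month caput. Corpus had 28.2 and 32.5 RPM and cauda 27.4 and 35.5 RPM. In testis 82.5% of these reads for WT and 82.7% for KO were 25 to 32 nt long, and 61.7% and 57.9% began with t, which are the length range and first base known for piRNAs. In WT caput the shares were 64.9% and 50.3%, and in KO caput 26.6% and 13.5%. In WT caput mt-Rnr2 reads of the class showed 12.9% and 2.00%. WT caput thus lay nearer to testis than KO caput did.

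Of these transcripts Mrps25, another mitochondrial ribosomal protein, had the most reads, 1082, of which 2.03% matched without a mismatch. It was at 12.5 RPM for WT and 0.11 RPM for KO in caput, and at 45.4 and 49.6 RPM in testis. Mrpl19 followed, at 4.12 and 0.05 RPM in caput and 15.3 and 16.7 RPM in testis. Pmpca, a subunit of the peptidase that trims imported proteins, was at 2.68 and 0.33 RPM in caput, and Tomm20, an import receptor of the outer membrane, at 2.82 and 0.71 RPM. Germ cell RNA moved with these values in caput. The piRNA class was at 157752 RPM for WT and 6548 RPM for KO in 13-month caput, and all 12 spermatid and sperm markers of the caput transcriptome were lower in KO, summing to 11649 RPKM for WT and 169.7 RPKM for KO, with none at 0. Their part in the lower share of mitochondrial fragments in KO caput was not tested. In bulk tissue, fewer cells of a type and less RNA per cell cannot be told apart.

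Single sequences were compared at a 2-fold ratio whose interval excludes 1, among sequences with at least 10 RPM in a library of the pair, counted under any class. In 13-month caput none of the 17 class sequences was higher, against 4.97% of all sequences, and 6 were lower, against 62.1%. The median log2 ratio was -0.89 for the class sequences and -5.74 for all. In corpus 7 of 41 were higher, against 21.6%, and 5 lower, against 18.7%. In cauda 8 of 28 were higher, against 21.2%, and 1 lower, against 7.37%. In testis 2 of 17 were higher, against 9.24%, and none lower, against 14.4%. At 2 months the 1 sequence that reached 10 RPM, the 20 nt start, was higher in KO, against 10.6%, and none was lower, against 37.3%. The class sequences in caput were lower in KO by a smaller median than all sequences there. All sequences include those that reach 10 RPM in WT caput only, and the piRNA class was at 157752 RPM for WT and 6548 RPM for KO there. The part of the piRNA class in the median of all sequences was not tested. In the other tissues of 13 months their shares in the higher direction, 17.1% in corpus, 28.6% in cauda and 11.8% in testis, lay near the background.

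By listed class the same comparison gave other counts. In 13-month caput 0 of 16 sequences were higher, against 5.86% of all sequences by listed class, and 8 lower, against 62.6%. In corpus 11 of 41 were higher, against 22.6%, and 8 lower, against 19.8%. In cauda 9 of 28 were higher, against 22.9%, and 5 lower, against 9.15%. In testis 6 of 16 were higher, against 9.72%, and 4 lower, against 14.9%. At 2 months the 20 nt start was again the only one, against 10.9% higher and 37.5% lower. In testis more of the sequences thus stood past the limit in each direction by listed class than when pooled over classes.

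Age was set beside genotype in caput only. As listed, the class was at 179.0 RPM for WT and 177.9 RPM for KO at 2 months, against 2567 and 817.7 RPM at 13 months. The exact mt-Rnr2 reads were at 98.8 and 147.0 RPM at 2 months, against 1776 and 1019 RPM. The young libraries also held class reads of up to 47 nt, while the longest class read at 13 months was 38 nt. In addition, a spreadsheet had turned 5531 rows for WT and 5419 for KO into dates at 2 months only. Age, read length and file handling cannot be told apart in these values.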

How the data were processed

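Small RNAs, selected at 18 to 40 nt per the labels, were sequenced in 10 libraries, 1 per group from pooled animals, and the caput transcriptome in 2. The authors deposited raw read counts per distinct sequence with the matched miRBase, Rfam or GenBank record, at up to 2 mismatches per the file headers. Per the submitters' processing notes, TopHat2, Bowtie 0.12.7 and mm9 were used, at steps not given. The RPKM values per transcript were deposited by the authors, from GFOLD per the file headers. The deposited table also holds the authors' log2 fold changes and a column headed E-FDR, recorded here with the unit p-value, which were not used. Rows of the 2-month lists that had become dates were given the month as their count.

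Mitochondrial RNA was taken from the class written in the matched record. Minus-listed sequences were reverse complemented. Reads were divided by all classified reads of the library, 3855476 to 29049669 reads, and given as RPM. Stretches of the rRNAs and the control region were grown from the reads by overlaps of 15 nt, and those of tRNAs by shorter overlaps. Of the stretches grown from class reads, a chosen subset was kept. mt-Rnr2 was named by its length and flanking tRNAs in RefSeq (GRCm38.p6, used for names and gene order only), and mt-Rnr1 and the control region from textbook sequence. Of 335 RefSeq accessions in the class, 333 had a symbol. tRNA genes were named where the record's interval lay within 4 bases of the RefSeq gene. The single-sequence comparison was tested on simulated data. Named items are the 3 most abundant sequences of each library, the most abundant sequence of each gene described, and in each pair the 2 genes with the largest ratio in each direction at 10 RPM or more. Alternatives covered the denominator, abundant sequences, distinct sequences, mismatches, strand, length and, added after seeing the data, the listed class, the stretches, the dated rows and TrnY. Python 3.11.15, pandas 2.3.3 and scipy 1.17.1 were used. Members and lists were chosen with earlier results of these data known.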

Additional observations from a re-analysis of the deposited data

Results flagged for a closer look

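Several KO over WT ratios ran in opposite directions between tissues or ages, each from 1 library per genotype, and the difference between tissues was not tested. For the class as listed, the log2 ratio was -1.65 in caput and -1.86 in corpus at 13 months, against 0.31 in cauda and 0.15 in testis. For exact mt-Rnr2 reads under any class it was -0.80 in caput and -0.29 in corpus, against 0.10 in cauda and 0.29 in testis, and was 0.57 in 2-month caput. For Rmrp it was -0.86 in caput, against 0.34 in corpus, 0.35 in cauda and 0.87 in testis.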

How the results depend on the processing

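The log2 KO over WT ratio of the class as listed is given in the order 13-month caput, corpus, cauda, testis and 2-month caput, where it was -1.65, -1.86, 0.31, 0.15 and -0.01. Without the miRNA and piRNA classes in the denominator it was -1.50, -1.92, 0.41, 0.0912 and 0.10, the last within the counting interval. Without the 10 most abundant sequences it was -0.65, 0.27, 0.45, 0.32 and -0.47, so corpus turned its direction. As distinct sequences at equal depth it was -0.90, 0.41, 0.40, 0.14 and -0.48, with corpus again reversed. With no mismatch it was -1.92, -2.35, 0.41, 0.0926 and 0.52, and with plus-listed reads only -1.95, -2.24, 0.30, 0.0777 and 0.39. Without 20 nt reads it was -1.17, 0.56, 0.36, -0.0452 and -0.37, which reversed corpus and testis. The sequences of the class under any class gave -0.80, -0.23, 0.12, 0.25 and 0.03, exact reads of the stretches under any class gave -0.63, -0.25, 0.10, 0.35 and 0.47, and class reads on the stretches gave -1.86, -2.20, 0.46, 0.0233 and 0.02. Leaving out rows turned into dates gave 0.28 at 2 months. Without TrnY the tRNA sum had log2 ratios of 0.0321, -0.0552, -0.13, 0.55 and 0.23, against 0.27, 0.19, -0.02, 0.80 and 0.27 with it, so corpus reversed and TrnY carried the difference there. For the other values that moved or reversed, the cause was not tested. The class ratio in caput at 13 months stayed below 0 in each of these settings. The alternative that counts all reads matching the mitochondrial genome was not run, since no genome was used here. No paired analysis was possible because each group is 1 library. At 2 months 690 and 1365 class reads limit all values.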
